A study of Mus musculus with 5 samples.

Results

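The fibroblasts of the normal colon stroma were 290 cells of 1 single-cell library, picked out by what they expressed. Of 1108 barcodes in that library, 1095 had at least 500 detected genes and at most 15% mitochondrial counts. A cell was taken as a fibroblast when it held at least 4 molecules (unique molecular identifiers, UMIs) of Dcn, Lum, C4b, Fbln1, Clec3b and Serpina3n added together, fewer than 3 of Wnt5a, Foxl1, Bmp5, Bmp7, Sox6 and Procr, which mark telocytes, and fewer than 5 of Actg2, Myh11, Des and Cnn1, which mark smooth muscle. These 290 cells were 26.5% of the kept stroma cells (95% interval 23.9 to 29.2, exact binomial), out of 8491 kept cells in the 5 libraries of the series. Because measured values chose the cells, the levels of the 16 genes of the rule are given as a description, and so is every contrast of these cells with the rest of the same library.

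Fibroblasts of the colon lie in the lamina propria and submucosa, where they lay down collagen and proteoglycans, make complement components and chemokines, and secrete factors that reach the epithelium. Colonic crypts depend on a gradient of signals from the mesenchyme. Cells beneath the crypt base release Wnt agonists and bone morphogenetic protein (BMP) antagonists such as gremlin 1, and telocytes near the crypt top and along the epithelium release BMP ligands and noncanonical Wnts. Around vessels lies an adventitial population that carries peptidase inhibitor 16, encoded by Pi16, and is found in many organs.

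The stroma library came from untreated wild-type (WT) mouse colon dissociated by a protocol for fibroblasts, in which the epithelium was stripped with chelator before the remaining tissue was minced and digested. The other 4 libraries came from WT colons bearing AOM/DSS tumors, raised with a carcinogen (azoxymethane) and a colitis agent (dextran sodium sulfate), treated with 5FU and irinotecan and taken at day 1 (2 libraries), day 3 or day 6, and dissociated by the usual protocol. Primary cells were profiled in all 5 by inDrop, a droplet method that counts the 3′ ends of polyadenylated transcripts, so a level does not scale with transcript length. Levels are given as counts per 1000000 UMIs (CPM) of the summed cells of a group, with an exact 95% Poisson interval in parentheses. The stroma was 1 replicate in 1 library, so there is no replicate spread and no test of a difference. All intervals cover counting error only.

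The libraries held between 5132360 and 16904947 UMIs, of which 5814641 were in the stroma, and 4, 11, 8 and 27 barcodes of the tumor libraries also occurred in the stroma library. The 290 fibroblasts together held 997589 UMIs. A single fibroblast held between 761 and 33078 UMIs with a median of 2596, and the median cell had 1354 genes and 1.03% mitochondrial counts. A gene with a count of 0 over all 290 fibroblasts could be present at up to 3.01 CPM, the level that 3 counts would give.

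The members carried the genes that defined them at different completeness, which the rule itself bounds from below. All 6 markers were detected in 90 cells, at least 4 in 237 cells (81.7%), and only 1 in 4 cells. Dcn, which encodes the collagen-binding proteoglycan decorin, supplied 61.2% of the summed marker UMIs, and 265 of the 290 cells would still have qualified without it. Of 11 general genes of mesenchyme outside the rule, 9 were at least 2-fold higher in the fibroblasts than in the other kept stroma cells, with a median log2 difference of 1.86, where 4.68% of all genes were. The 6 rule genes took up a median of 1.80% of a fibroblast's UMIs (range 0.0121 to 4.75), against 0.183% in the 115 telocytes chosen by the same sums and a median of 0 with a maximum of 0.133% in 326 epithelial cells. These epithelial cells left out any that met the fibroblast, telocyte or muscle rule, and they held at most 3 marker UMIs. Only 1 fibroblast fell under their 95th percentile. The rule largely sets this gap, so it is a description.

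Some members also reached the marker sum of another cell type. In 46 of the 290 cells (15.9%, 11.8 to 20.6) such a sum was met, 19 times for epithelial cells, 10 for plasma cells, 8 for pericytes, 5 each for macrophages and glia, 4 for endothelium and 2 for lymphatic endothelium, with some cells meeting more than 1. No fibroblast met the sum for B cells, T cells, neutrophils or mast cells. These 46 mixed cells had a median of 5156 UMIs against 2274 in the remaining 244, and a median of 0.376% of their UMIs came from the 6 fibroblast markers. They held 321089 of the 997589 UMIs. Whether they are doublets or cells carrying free RNA was not tested, and the comparison of subsets is given with and without them. In the 244 other cells Dcn stood at 12520 CPM (12255 to 12790), Gsn at 21330 CPM (20984 to 21681) and Krt8 at 207 CPM (174 to 244), against 1268 CPM (1199 to 1340) of Krt8 in all 290.

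The cells nearest to the thresholds are given once. The 5 cells with exactly 4 marker UMIs all reached another type's sum and summed to 208 CPM of Dcn and 6330 CPM of the epithelial keratin Krt8, and the 25 cells with 3 marker UMIs, 21 of them mixed, summed to 193 and 3244 CPM. Gsn stood at 1340 CPM in the 5 and 371 CPM in the 25. On the telocyte side, 19 members held 2 telocyte UMIs and 8 excluded cells held 3, with Dcn at 9729 and 3868 CPM and the 6 markers at a median of 1.46% and 0.501% of UMIs. No member held 4 muscle UMIs, and 1 excluded cell held 5. In all, 390 kept cells reached the marker sum, of which 64 were set aside for telocyte genes, 32 for muscle genes and 4 for both.

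Decorin transcripts dominated the rule. Dcn (chromosome 10, 97479609 to 97518143, plus strand, GRCm38) stood at 9328 CPM (9140 to 9520) in the fibroblasts and at 1619 CPM (1501 to 1745) in telocytes. It was detected in 97.9% of fibroblasts. In epithelial cells, which should lack it, the level was 23.9 CPM (18.9 to 29.9), and it was detected in 19% of them at a median of 6508 UMIs. Both values follow from the rule and are given as a description.

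The other markers of the rule were lower and patchier. Fbln1 (chromosome 15, 85205949 to 85286535, plus strand), for the matrix glycoprotein fibulin 1, stood at 2071 CPM (1983 to 2162). Clec3b (chromosome 9, 123150946 to 123157432, plus strand), for the plasminogen-binding lectin tetranectin, stood at 1967 CPM (1881 to 2056). C4b (chromosome 17, 34728380 to 34743882, minus strand) encodes complement component 4 and stood at 695 CPM (644 to 748). Its near-identical neighbour C4a (34809092 to 34823464 on the same strand) was counted at 33.1 CPM (22.8 to 46.5), and reads shared by the pair could have been split between them. Lum (chromosome 10, 97565128 to 97572703, plus strand), for the keratan sulfate proteoglycan lumican, stood at 604 CPM (557 to 655), and Serpina3n (chromosome 12, 104406729 to 104414329, plus strand), for a secreted serine protease inhibitor, at 574 CPM (528 to 623). In telocytes the same 5 genes stood between 42.2 and 300.4 CPM.

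**Figure D1:**
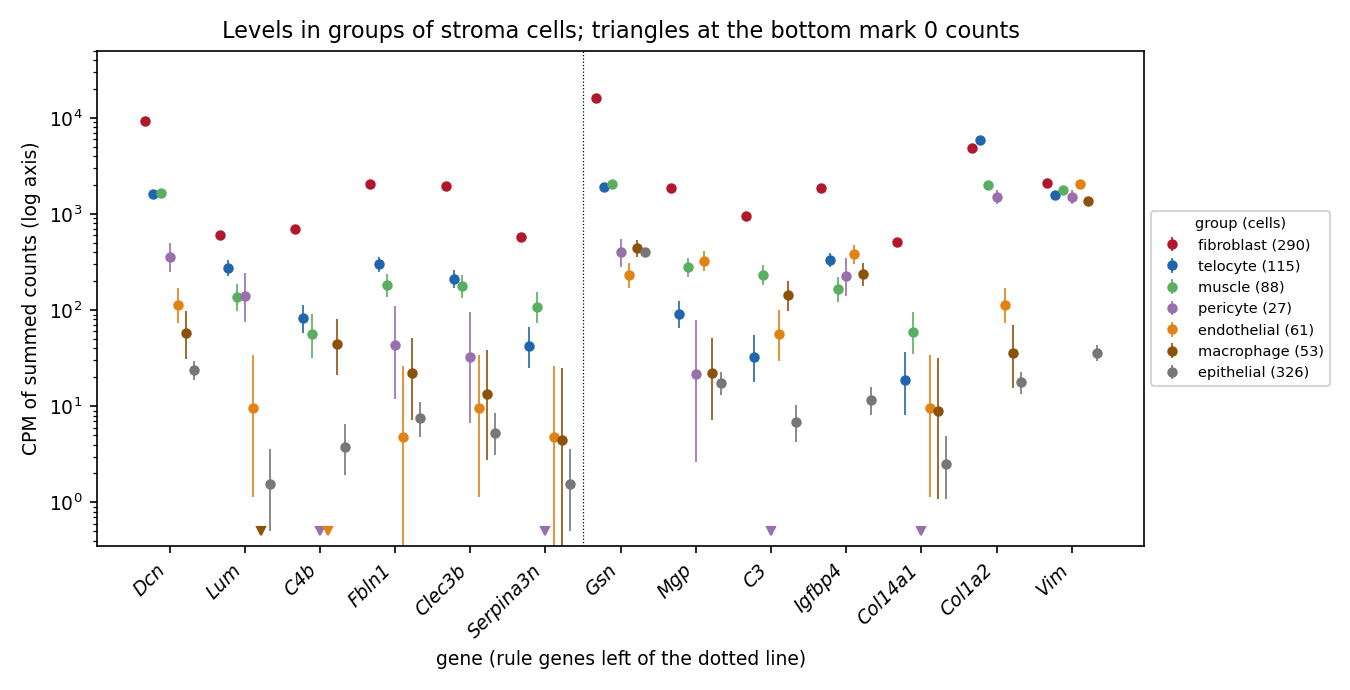
CPM (log axis) of the 6 rule genes, left of the dotted line, and of 7 other genes in 7 groups of stroma cells, 1 point for each group with its exact 95% Poisson interval and a triangle for 0 counts. The 290 fibroblasts stand above every other group in each rule gene and in Gsn, Mgp, C3, Igfbp4 and Col14a1, while Col1a2 is higher in telocytes and Vim is shared by all the mesenchymal, endothelial and macrophage groups.

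Against all 805 other kept stroma cells, 658 of 14056 genes tested were at least 2-fold higher in the fibroblasts (4.68%), with 20 CPM added to both sides before the ratio. The 15 leading genes were Clec3b, Dcn, Fbln1, Mgp, Gsn, Eln, C4b, C3, Serpina3n, Igfbp4, Col14a1, Htra3, Igfbp3, Sfrp1 and Has1. Since the cells were chosen on 5 of these genes, the order describes the group and carries no test. Gsn, for the actin-severing protein gelsolin, was the most abundant transcript of the 15 at 16218 CPM (15969 to 16470) against 664.8 CPM in the other cells. Mgp, for matrix Gla protein, an inhibitor of calcification, stood at 1870 against 54.8 CPM. Eln, for elastin, stood at 752 against 17.5 CPM. Htra3, for a secreted serine protease, stood at 719 against 21.1 CPM.

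Genes for the extracellular matrix made up the broadest shared feature of the fibroblasts. Of 16 collagen genes tested 13 were at least 2-fold higher than in the other stroma cells, with a median log2 difference of 2.29. Among all genes 4.68% were, and the median was -0.08. Of 27 other matrix genes 25 were higher (median 2.69). The fibrillar collagen genes were the most abundant, with Col3a1 at 4899 CPM (4762 to 5038), Col1a2 at 4851 CPM (4715 to 4989) and Col1a1 at 2571 CPM (2473 to 2673). Sparc, for the collagen-binding protein osteonectin, reached 5632 CPM (5485 to 5781). Postn, for periostin, stood at 2577 CPM (2479 to 2679), and Dpt, for dermatopontin, at 2371 CPM (2276 to 2468). Proteases and their inhibitors were higher in 11 of 18 genes (median 1.90), led in level by Timp2, an inhibitor of matrix metalloproteinases, at 1811 CPM (1729 to 1897), and by Serping1, the inhibitor of complement C1, at 1574 CPM (1497 to 1654).

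Complement genes formed another shared feature. Of 10 genes tested, C4b not among them, 8 were at least 2-fold higher than in the other cells (median log2 difference 1.65). Among all genes the share was 4.68%. The proteases of the C1 complex stood at 1261 CPM (1192 to 1333) for C1s1 and 804 CPM (749 to 862) for C1ra. C3, the central component on which the pathways meet, stood at 949 CPM (889.8 to 1012). Cd55, for a membrane protein that restrains the cascade, stood at 349 CPM (313 to 388). The fibroblasts thus held transcripts for components and for an inhibitor together.

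Binding proteins of insulin-like growth factors were abundant. In the list of these factors and their binding proteins 5 of 8 genes were higher than in the other cells (median 2.54), against 4.68% of all genes. Igfbp4 led at 1886 CPM (1801 to 1973), followed by Igfbp3 at 1234 CPM (1166 to 1305), Igfbp5 at 1139 CPM (1073 to 1207) and Igfbp7 at 1018 CPM (957 to 1083). The interval of Igfbp4 lay above those of the other 3, and those of Igfbp3 and Igfbp5 met.

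Among 23 genes for signals to the crypt, 11 were at least 2-fold higher than in the other stroma cells (median 0.89), against 4.68% of all genes. Levels within the list were spread widely. Bmp4, a BMP ligand that restrains crypt proliferation, was the most abundant at 1578 CPM (1501 to 1658). Sfrp1, a secreted Wnt antagonist, followed at 1152 CPM (1086 to 1220). Ptgs2, for the inducible prostaglandin synthase, stood at 403 CPM (364 to 444), and Wnt4 at 247 CPM (217 to 279). Amplifiers of Wnt signaling were scarce: Rspo3 had 30 counts over all 290 cells (30.1 CPM, 20.3 to 42.9), Rspo1 had 5 and Rspo2 had 2. No UMI of Nog or Dkk2 was counted in 997589.

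Chemokines and cytokines were led by Cxcl12, the ligand of Cxcr4, at 1732 CPM (1651 to 1816). The eosinophil attractant Ccl11 stood at 468 CPM (427 to 513), the B cell attractant Cxcl13 at 297 CPM (264 to 332), the neutrophil attractant Cxcl1 at 292 CPM (259 to 327) and the macrophage growth factor Csf1 at 255 CPM (224 to 288). Of 21 genes in the list 9 were at least 2-fold higher than in the other cells (median 0.48), against 4.68% of all genes. Il6, for interleukin 6, stood at 224 CPM (195 to 255), was detected in 16.6% of fibroblasts against 0.92% of epithelial cells, and drew 22.0% of its counts from 1 cell. Without that cell the level was 175 CPM. Ccl2 rested on 1 cell for 34.8% of its 69 counts, so its level of 69.2 CPM (53.8 to 87.5) describes few cells.

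Receptors, regulators and response genes completed the description. The growth factor receptor gene Pdgfra stood at 399 CPM (361 to 440.1), and 12 of 19 receptor genes were higher than in the other cells (median 1.10). Among all genes 4.68% were at least 2-fold higher, the share to set beside each list count here. Tcf21, a basic helix-loop-helix factor of visceral mesenchyme, was the leading transcription factor at 1344 CPM (1273 to 1418), with Osr1 at 384 CPM (346 to 424), and 9 of 22 factors were higher (median 0.80). Fos, an immediate early gene that responds to stimulation within minutes, stood at 7852 CPM (7679 to 8028) in fibroblasts, 6678 CPM (6435 to 6928) in telocytes and 4125 CPM (4055 to 4196) in epithelial cells, and 4 of 18 immediate early genes were at least 2-fold higher in the fibroblasts (median 0.67). The part played by the dissociation was not tested, since only 1 stroma library was made.

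Niche and adventitial subsets were set apart within the fibroblasts by a few genes. A cell with at least 1 UMI of Grem1 and 1 of C4b, and fewer than 2 of Pi16, Cilp and Has1 together, was called niche, and 55 cells qualified (19.0%, 14.6 to 24.0). A cell with at least 2 UMIs of Pi16, Cilp and Has1 together and none of Grem1 was called adventitial, and 49 cells qualified (16.9%, 12.8 to 21.7). A further 9 cells (3.10%) held Grem1, C4b and at least 2 adventitial UMIs, and 177 (61.03%) met no description, among them a few with Grem1 and adventitial UMIs but no C4b. The names stand for these genes alone, since no position in the tissue was measured.

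The 250 bases upstream of the annotated start of 3 genes that split the fibroblasts are shown, because Grem1 fell on one side of the split and Cilp and Has1 on the other. They are from RefSeq on GRCm38.p6, written 5′ to 3′ along the gene, and capitals mark a CCAAT match on either strand. Grem1 lies at chr2:113758649-113758898 on the minus strand, Cilp at chr9:65264930-65265179 on the plus strand and Has1 at chr17:17855189-17855438 on the minus strand.
Grem1: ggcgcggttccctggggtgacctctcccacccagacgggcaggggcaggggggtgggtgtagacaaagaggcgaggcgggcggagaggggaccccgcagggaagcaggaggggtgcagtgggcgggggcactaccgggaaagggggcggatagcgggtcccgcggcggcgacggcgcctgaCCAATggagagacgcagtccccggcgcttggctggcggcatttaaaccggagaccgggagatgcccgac
Cilp: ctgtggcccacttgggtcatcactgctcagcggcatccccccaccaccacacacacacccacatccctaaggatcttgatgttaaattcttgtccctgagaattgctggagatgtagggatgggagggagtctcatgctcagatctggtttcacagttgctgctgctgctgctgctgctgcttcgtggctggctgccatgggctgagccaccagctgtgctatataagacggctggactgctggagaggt
Has1: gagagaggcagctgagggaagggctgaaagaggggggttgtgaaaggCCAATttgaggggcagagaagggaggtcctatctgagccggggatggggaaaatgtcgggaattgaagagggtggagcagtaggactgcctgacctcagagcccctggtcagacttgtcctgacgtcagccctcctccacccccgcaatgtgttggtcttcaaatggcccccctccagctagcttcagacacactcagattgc
CCAAT occurred 69 bases before the start of Grem1 and 203 bases before that of Has1, and not in the Cilp window. The window of the other adventitial gene, Pi16, is not shown and held CCAAT 64 bases before the RefSeq start. That start lies inside the span of Pi16 given below. Of 32851 promoter windows of this length in the table, 33.9% held CCAAT, so its presence in 2 of the 3 windows shown is a description only. Of the 15 leading genes of the fibroblasts, 8 had at least 1 window. CCAAT lay in a window of 3 of these 8 genes (Gsn, Htra3 and Has1), against 37.5% of all 27025 genes with a window. TATAAA lay in 1 of the 8 (Igfbp4), against 14.3% of all genes, and the AP-1 letters TGANTCA in 0, against 7.82%. The STAT letters TTCNNNGAA lay in 0 of the 8, against 8.13%, and the EGR letters GCGNGGGCG in 1 (Fbln1), against 5.33%.

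Grem1 (chromosome 2, 113746164 to 113758646, minus strand), for the BMP antagonist gremlin 1, was found in 31.4% of fibroblasts and 0.307% of epithelial cells. A niche cell held between 1 and 28 of its UMIs, with a median of 2, and between 1 and 14 of C4b with a median of 4. In sum Grem1 stood at 1027 CPM (897 to 1172) in niche cells. The highest cell supplied 8.43% of the Grem1 counts of all fibroblasts, so the signal was spread over many cells.

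The 3 adventitial genes did not mark the same cells. Has1 (chromosome 17, 17843323 to 17855205, minus strand) encodes a synthase of hyaluronan and was found in 32 of the 49 adventitial cells. Cilp (chromosome 9, 65265180 to 65280605, plus strand), for an extracellular protein of cartilage and heart fibroblasts, was found in 33. Pi16 (chromosome 17, 29317680 to 29330593, plus strand) was found in 24. Only 12 cells held all 3, 16 held 2, and of the 21 with a single gene 11 had Has1, 10 had Cilp and 0 had Pi16. For each gene 1 cell weighed heavily, with 20.8% of the Has1, 21.6% of the Cilp and 21.5% of the Pi16 counts of all fibroblasts. Without its highest cell Has1 moved from 516 to 412 CPM, Cilp from 288 to 228 and Pi16 from 130 to 103.

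Detection of the 3 genes overlapped in part. Of the 28 fibroblasts with Pi16, 71.4% (51.3 to 86.8) also held Cilp, against 10.7% (7.22 to 15.1) of the 262 without Pi16. The same 71.4% of Pi16 cells held Has1, against 15.3% (11.1 to 20.2). Of the 48 cells with Cilp 39.6% (25.8 to 54.7) held Has1, against 16.9% (12.4 to 22.3) of the others. The Pi16 cells were deeper, at a median of 3598 against 2491 UMIs, and the part of depth in these shares was not tested.

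Grem1 and the adventitial genes were detected together in some cells. Of 91 fibroblasts with Grem1, 17 (18.7%, 11.3 to 28.2) held at least 2 adventitial UMIs, against 49 of 199 without Grem1 (24.6%, 18.8 to 31.2), and these intervals overlap. The Grem1 cells were deeper, with medians of 3434 and 2198 UMIs. C4b parted more clearly, being found in 40.9% (28.9 to 53.7) of the 66 cells with at least 2 adventitial UMIs and in 68.8% (62.2 to 74.8) of the 224 others, at medians of 2741 and 2506 UMIs.

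**Figure D2:**
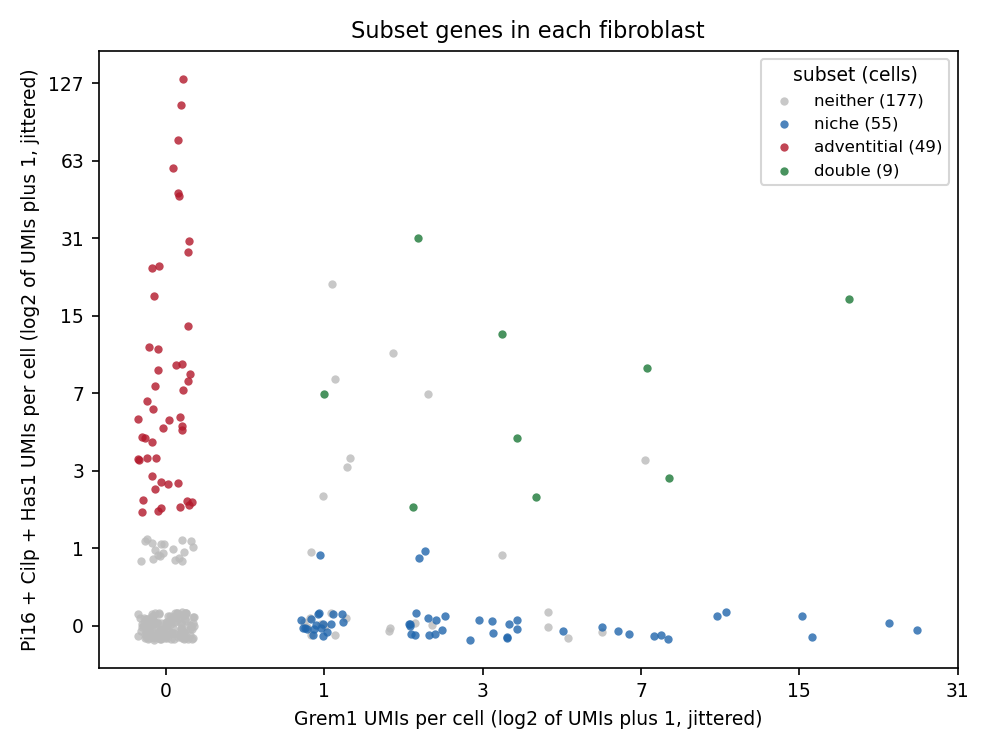
Each of the 290 fibroblasts drawn by its Grem1 UMIs and its summed Pi16, Cilp and Has1 UMIs, both axes on a log2 scale of UMIs plus 1 with the points jittered and coloured by subset. Most cells lie at 0 or along the axes, with 55 niche cells to the right, 49 adventitial cells upwards and 9 cells (double) that held Grem1, C4b and at least 2 adventitial UMIs between them.

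The 177 cells in neither subset were shallower, with a median of 2153 UMIs against 3782 in niche and 2698 in adventitial cells. Of them 32 were mixed and held 227649 of their 558459 UMIs. Dcn stood at 6590 CPM (6378 to 6806) in the 177 and 10127 CPM (9787 to 10476) in the 145 that were not mixed. Cxcl12 stood at 1681 CPM (1576 to 1792) and 2585 CPM (2414 to 2764) in the same order, and Tcf21 at 1296 CPM (1204 to 1394) and 1904 CPM (1759 to 2059). In niche and adventitial cells that were not mixed, Cxcl12 stood at 2946 and 710.2 CPM and Tcf21 at 2340 and 562 CPM. The unmixed cells of neither subset thus lay between the subsets in both genes, nearer to the niche level. When every cell was reduced to 1000 UMIs, the niche share fell to 8.66% while the adventitial share was 16.5%, so the niche share moved with depth. After thinning the subsets were picked anew, as 22 niche and 42 adventitial cells of 254 fibroblasts. Differences given below as thinned are between these cells.

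Adventitial and niche fibroblasts differed in a set of genes the subset rule did not use. Adventitial cells carried transcripts of Inmt, Ackr4, Pcolce2, Ebf1, Gas1 and Thbs2, which were at or near 0 in niche cells apart from Thbs2, and niche cells carried more Wnt4, Cxcl12, Tcf21, Hpse, Apoe and Igfbp3. Of 6284 genes tested, 440 were at least 2-fold higher in adventitial cells (7%) and 312 lower (4.96%). Without the mixed cells, which left 41 adventitial and 50 niche cells, 320 of 5160 were higher (6.2%) and 377 lower (7.31%). Neither count carries a test, and the subsets were chosen on other genes of the same cells.

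The genes with the clearest adventitial signal had few or no counts in niche cells. Inmt, for an indole N-methyltransferase, had 92 counts in adventitial cells (514 CPM, 414 to 630.1) and 0 in niche cells. Its ratio was at least 29.5, the lower end of its exact interval. Ackr4, for a scavenging receptor of Ccl19 and Ccl21, stood at 452 CPM (359 to 562) against 0 counts, at least 25.9-fold higher by the same limit. Ebf1, a transcription factor of B cells and of perivascular and fat-forming mesenchyme, stood at 536 CPM (434 to 655) against 2 counts, a ratio of 57.9 (15.6 to 485), and against 1 count without the mixed cells, a ratio of 117 (20.4 to 4669). These genes were each absent or nearly so on the niche side.

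Further adventitial genes encoded secreted and membrane proteins. Pcolce2, an enhancer of procollagen processing, stood at 508 CPM (409 to 624) against 1 count, a ratio of 109.8 (19.2 to 4384), and thinning moved its log2 difference from 4.42 to 2.33. Gas1, a hedgehog coreceptor, stood at 223 CPM (159.6 to 304) against 2 counts, 24.1-fold (6.26 to 206). Thbs2, for the antiangiogenic matrix protein thrombospondin 2, stood at 486 against 41.6 CPM, 11.7-fold (5.87 to 26.4). Among fixed lists, Penk, for the opioid precursor proenkephalin, stood at 341 against 64.8 CPM (5.26-fold, 2.91 to 10.2), Cd81, for a tetraspanin, at 413 against 69.4 (5.95-fold, 3.39 to 11.2), and the alarmin Il33 at 162 against 23.1 (7-fold, 2.68 to 23.2). Without the mixed cells the ratio of Cd81 was 12.1-fold (5.54 to 31.4). Within the matrix the microfibril gene Mfap5 was 3.89-fold (2.77 to 5.56) higher, with its log2 difference moving from 1.86 to 1.07 on thinning, and the growth factor binding protein gene Igfbp6 was 3.96-fold (2.64 to 6.08) higher.

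Of the 15 genes leading in adventitial cells, 5 were genes of epithelium that moved with the mixed cells, namely Tgm3, Sprr2a1, Guca2a, Dmbt1 and Sprr2a2. The epithelial marker list summed to 2384 CPM in adventitial and 499.8 CPM in niche cells, against 9025 CPM in the library's epithelial cells. Without the mixed cells the other 10 of the 15 stayed at least 2-fold higher, among them Has1, Cilp and Pi16, on which the adventitial cells were chosen. Saa1, an acute phase gene, stayed at a log2 difference of 1.42 instead of 3.84, on only 12 against 4 counts. Sprr2a1 turned from a log2 difference of 3.16 to -0.50, Guca2a from 3.10 to -0.07 and Sprr2a2 from 3.05 to -0.50. A single cell held 368 of the 429 Sprr2a1 counts and 96 of the 131 Saa1 counts of the adventitial cells. Sprr2a1 and Sprr2a2 are close paralogs whose reads may be split. Inmt, Ackr4, Ebf1 and Pcolce2 stood at 710.2, 617, 656 and 624 CPM in the 41 cells that remained, and these 4 were at least 2-fold higher in all 11 settings that gave a value.

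Several genes for signals and regulators stood higher in niche cells, among them Wnt4, Cxcl12 and Tcf21. Wnt4 stood at 361 CPM (285 to 450.5) in niche and 50.3 CPM (23 to 95.4) in adventitial cells, 7.18-fold (3.6 to 16.3) higher in niche cells. Cxcl12 stood at 2763 CPM (2546 to 2994) against 592 CPM (485 to 716), 4.67-fold (3.79 to 5.79). It was found in 54 of the 55 niche cells, with a median of 9 and a maximum of 41 UMIs, and in 26 of the 49 adventitial cells with a median of 1 and a maximum of 25, so the groups overlapped. With every cell thinned to 1000 UMIs and the subsets picked anew, the log2 difference of Cxcl12, adventitial over niche, moved from -2.19 to -1.17. Tcf21 behaved alike, at 2157 against 480.2 CPM (4.49-fold, 3.56 to 5.72), in 54 niche and 27 adventitial cells. Bmp4 was 2.45-fold (2.05 to 2.94) and the growth factor Hgf 9.95-fold (2.47 to 86.8) higher in niche cells. Il6 stood at 472 against 117 CPM (4.03-fold, 2.5 to 6.78), but 1 niche cell held 49 of the 102 counts, and without it the ratio was 2.14. Il6 was detected in 13 of 55 niche and 9 of 49 adventitial cells, and with niche cells held to at least 2 Grem1 UMIs its log2 difference, adventitial over niche, moved from -1.84 to -0.59.

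Hpse, Apoe, Postn, Eln and Col15a1 were further genes higher in niche cells. Hpse, for the heparan sulfate cleaving enzyme heparanase, stood at 648 against 78.2 CPM, 8.29-fold (4.78 to 15.6) higher in niche cells. The lipid carrier gene Apoe was 7.24-fold (4.23 to 13.3) higher, periostin gene Postn 3.63-fold (3.05 to 4.34), elastin gene Eln 3.42-fold (2.63 to 4.49) and the basement membrane collagen gene Col15a1 3.73-fold (2.61 to 5.45). Foxf2, a forkhead factor of gut mesenchyme, had 15 counts in niche and 0 in adventitial cells. It was at least 2.97-fold higher in niche cells, the lower end of its exact interval. Of the 15 genes leading in niche cells, 14 stayed at least 2-fold higher without the mixed cells, and Muc2, for the goblet cell mucin, was the one that did not. The 14 include Grem1 and C4b, on which the niche cells were chosen.

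Binding proteins of insulin-like growth factors fell on opposite sides. Igfbp5 stood at 2273 CPM (2057 to 2505) in adventitial and 870 CPM (750.1 to 1004) in niche cells (2.61-fold, 2.19 to 3.12), and Igfbp6 at 586 and 148 CPM. Igfbp3 stood at 408 CPM (319.5 to 512) and 1638 CPM (1472 to 1818) in that order, 4.02-fold (3.12 to 5.24) higher in niche cells, and Igfbp4 at 1027 and 2605 CPM (2.54-fold, 2.14 to 3.01). The family therefore counted 2 genes at least 2-fold higher and 2 lower of 6 tested, against 7% and 4.96% of all genes.

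By list, the differences between adventitial and niche cells were mixed in direction. Of all genes tested 7% were at least 2-fold higher in adventitial cells and 4.96% lower. The fixed list of genes tied to adventitial fibroblasts had 7 higher and 1 lower of 18 tested, with a median log2 difference of 0.60 (0.90 without the mixed cells), where all genes had a median of 0.01. Collagens had 1 higher and 1 lower of 15 (median -0.07), matrix genes 4 and 5 of 27 (-0.16) and complement 0 and 1 of 9 (-0.53). Signals to the crypt had 2 higher and 4 lower of 13 (-0.45), cytokines 2 and 4 of 14 (-0.57) and transcription factors 2 and 6 of 16 (-0.40). Without the mixed cells the medians of collagens and matrix genes changed sign, to 0.21 and 0.15. Those of complement, signals, cytokines and transcription factors were then -0.35, -0.32, -0.19 and -0.25, beside -0.03 for all genes. C3 was the higher in adventitial cells at 1904 against 1337 CPM (1.42-fold, 1.21 to 1.67). Its log2 difference moved from 0.50 to 0.10 with an adventitial sum of at least 1. C4b was higher in niche cells, where the rule required it. Immediate early genes had 0 higher and 2 lower of 18 (-0.09).

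**Figure D3:**
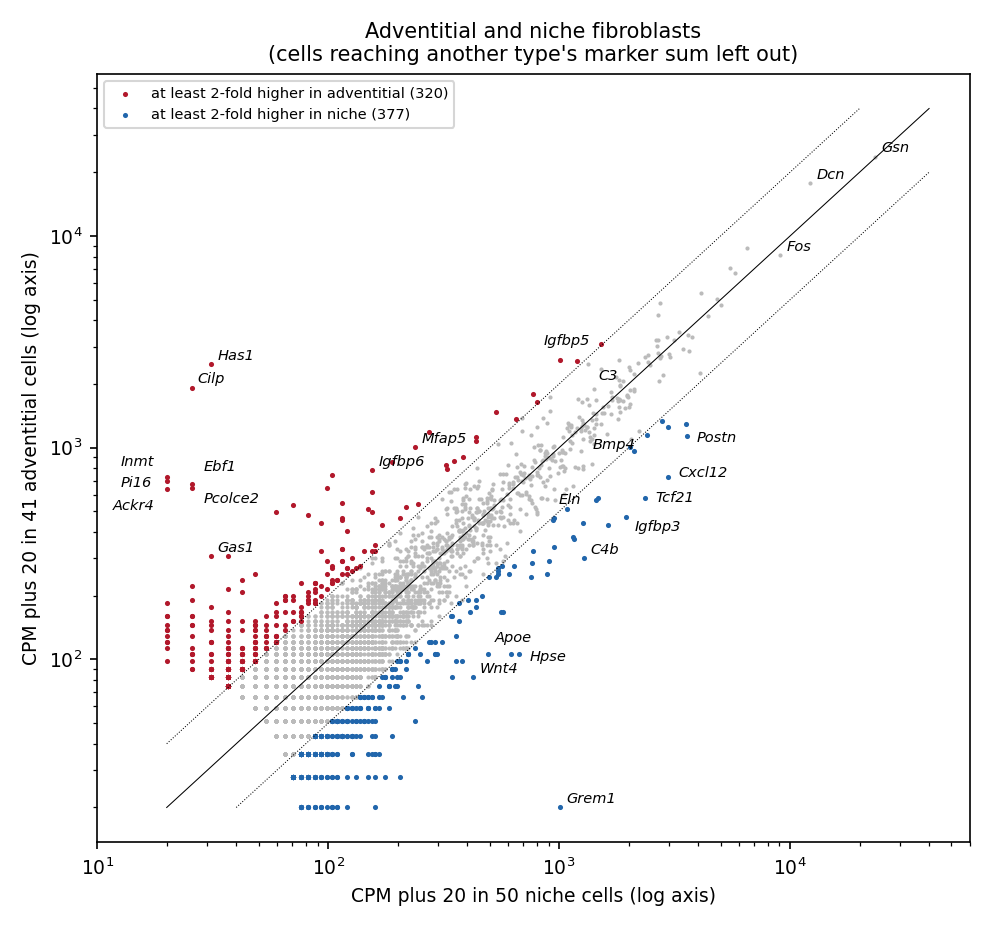
CPM plus 20 of each of 5160 genes tested in 50 niche and 41 adventitial fibroblasts without the mixed cells, on log axes, with dotted lines at a 2-fold difference. Inmt, Ackr4, Ebf1, Pcolce2 and Gas1 stand off towards the adventitial side with the rule genes Has1, Cilp and Pi16, and Cxcl12, Tcf21, Igfbp3, Wnt4 and Hpse towards the niche side.

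Unsupervised clustering of the 290 cells gave 4 clusters, defined by genes of the same cells and so without any test. Cluster 1 had 108 cells, 36 of them niche and 9 adventitial, and was led by Edil3, Prkar1b, Pgm5, Mmp11 and Wnt4. Cluster 2 had 103 shallow cells with a median of 1268 UMIs, against 3637 in cluster 1, and was led by Snai1 and Ereg at small folds. Cluster 3 had 43 cells, 39 of them mixed and 19 carrying the epithelial sum, with Dcn at 1983 CPM (1829 to 2147) and Krt8 at 3686 CPM (3474 to 3907), and was led by the immunoglobulin genes Igha and Jchain and the goblet cell genes Fcgbp and Tff3. Cluster 4 had 36 cells, of which 30 were adventitial and 0 niche, and was led by Inmt, Cilp, Ackr4, Pcolce2, Pi16, Stc2, Ebf1, Gdf10, Penk and Gas1.

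Cluster 4 was set off from cluster 1 in both directions. Only 2 of its 36 cells were mixed. It held 18432 CPM (17680 to 19208) of Dcn, above the 11766 CPM (11439 to 12099) of cluster 1, and 2658 against 1095 CPM of C3, but 106 against 1100 CPM of C4b. Igfbp3, Wnt4 and Edil3 each had 0 counts in cluster 4, against 2023, 415 and 359.5 CPM in cluster 1. The progenitor marker Cd34 stood at 1826 CPM (1595 to 2082) in cluster 4 and 817 CPM (733 to 909) in cluster 1. Has1, by contrast, was present outside it, at 336 CPM (282 to 396) in cluster 1 and 385 CPM (292 to 498) in cluster 2 beside 2478 CPM (2207 to 2773) in cluster 4.

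The 49 adventitial cells of the rule parted between cluster 4 and the other clusters. The clusters were formed from other genes of the same cells, without Grem1, C4b, Pi16, Cilp and Has1, so the values are a description. The 30 in cluster 4 included 11 with all 3 genes and 2 with Has1 alone, whereas 9 of the 19 outside it had Has1 alone. Of these 19, 13 were not mixed. Has1 stood at 2791 CPM (2261 to 3408) in those 13 cells, with 54 of its 96 counts in 1 cell, and at 2717 CPM (2411 to 3051) in the 30, with 107 of 286 counts in 1 cell. Cilp stood at 174 CPM (64 to 379.7) and 2280 CPM (2001 to 2588), and Pi16 at 174 CPM (64 to 379.7) and 1036 CPM (850.3 to 1249). Inmt, Ackr4 and Ebf1 had 0 counts in the 13 cells and stood at 864.5, 769.5 and 864.5 CPM in the 30.

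The 13 cells instead carried genes that stood higher in niche than in adventitial cells, Grem1 being absent by the rule. These genes were not confined to niche cells. In cluster 2, of which 13.6% were niche, Cxcl12 stood at 2510, Igfbp3 at 1833 and Tcf21 at 1866 CPM. Cxcl12 stood at 2268 CPM (1792 to 2830) in the 13, 2763 CPM (2546 to 2994) in niche cells and 133 CPM (72.7 to 223) in the 30. Igfbp3 stood at 1686 CPM (1280 to 2180), 1638 CPM (1472 to 1818) and 0 counts in the same order. Tcf21 stood at 1570 CPM (1179 to 2048), 2157 CPM (1965 to 2362) and 218 CPM (138 to 328). C4b stood at 756 CPM (494 to 1108) in the 13 and 104 CPM (52.2 to 187) in the 30. In Cxcl12, Igfbp3 and Tcf21 the 13 cells lay nearer to the niche level than the 30 cells did. These genes were not left out of the clustering that parted the 13 from the 30, so this is a description only. Wnt4, at 233 CPM (100.4 to 458) in the 13, had 0 counts in the 30.

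**Figure D4:**
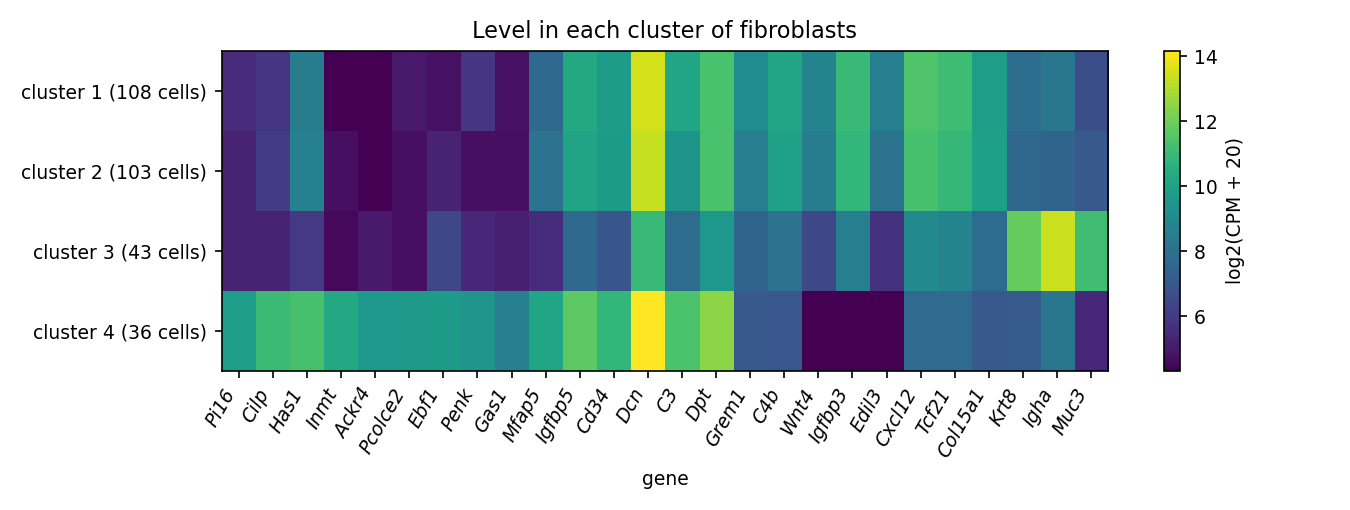
Heat map of levels in the 4 clusters of fibroblasts, as log2 of CPM plus 20 (colour), with 1 row for each cluster (108, 103, 43 and 36 cells) and 1 column for each gene. Cilp, Pi16, Inmt, Ackr4 and Ebf1 are bright in cluster 4 and dark elsewhere, Wnt4, Igfbp3 and Edil3 are at 0 there, Has1 is seen in clusters 1, 2 and 4, and Krt8, Igha and Muc3 are bright in cluster 3.

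Telocytes, the other stromal cells that the rule kept apart, were set beside the fibroblasts. The rule itself drew this contrast, so it too is a description. Of 10779 genes tested 230 were at least 2-fold higher in fibroblasts (2.13%) and 310 lower (2.88%). Fibroblasts carried Grem1, C3, Mgp, Col14a1, Sfrp1, Eln and Gsn, and telocytes carried contractile genes, Pdgfra and BMP genes. Cells near the boundary were assigned by the telocyte genes, so Procr, Wnt5a, Sox6 and Bmp7 were lower in fibroblasts by construction.

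Secreted factors and matrix genes were on the fibroblast side. Grem1 had 332 counts in fibroblasts and 0 in telocytes, at least 38.2-fold higher by the lower end of its exact interval. C3 stood at 949 against 32.9 CPM (28.9-fold, 17.1 to 53.1) and Mgp at 1870 against 91.5 CPM (20.4-fold, 14.9 to 28.8). Sfrp1 stood at 1152 against 101 CPM (11.4-fold, 8.42 to 15.9). The actin-severing gelsolin, high in both kinds of cell, was 8.48-fold (7.9 to 9.11) higher in fibroblasts. Col14a1, for a collagen that decorates fibrils, was 27-fold (13.6 to 62.8), Eln 11.9-fold (8.09 to 18.1), Cd34 5.19-fold (3.98 to 6.89) and Il6 19.1-fold (8.04 to 59.2) higher.

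Contractile genes and Pdgfra were on the telocyte side. Acta2, for smooth muscle actin, stood at 115 CPM in fibroblasts and 1307 CPM in telocytes, 11.3-fold (9.26 to 14) higher there. Tagln, for the actin-binding protein transgelin, stood at 39.1 against 849 CPM (21.7-fold, 15.6 to 31.1). Pdgfra stood at 399 against 1530 CPM (3.83-fold, 3.38 to 4.36), and the basement membrane collagen gene Col4a5 at 42.1 against 404 CPM. Among BMP ligands Bmp2 stood at 146 CPM (124 to 172) against 746 CPM (666 to 833), whereas Bmp4 stood at 1578 CPM (1501 to 1658) against 1725 CPM (1602 to 1854), a ratio of 0.915 (0.838 to 1). Bmp4 and Cxcl12, at 1732 against 2210 CPM, were no higher in the fibroblasts.

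By list, matrix genes other than collagens had 13 higher and 2 lower of 27 (median log2 difference 0.84, all genes -0.05), complement 6 and 0 of 10 (1.23), insulin-like growth factors with their binding proteins 4 and 0 of 8 (1.12) and proteases with inhibitors 5 and 0 of 16 (0.39). The adventitial list had 10 higher and 1 lower of 21 (0.96). Collagens had 4 and 1 of 16 with a median of -0.18, receptors 1 and 4 of 19 (-0.13) and signals to the crypt 5 and 3 of 19 (0.33). Immediate early genes had 0 and 0 of 18 (0.24). Among all genes tested, 2.13% were at least 2-fold higher in fibroblasts and 2.88% lower. Of the 15 leading genes on each side, 14 and 14 stayed past 2-fold without the mixed cells, the exceptions being the goblet cell gene Tff3 and the endothelial gene Plvap. Those that stayed include genes of the rule, Clec3b and Serpina3n on the fibroblast side and Procr, Wnt5a, Sox6 and Bmp7 on the telocyte side.

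**Figure D5:**
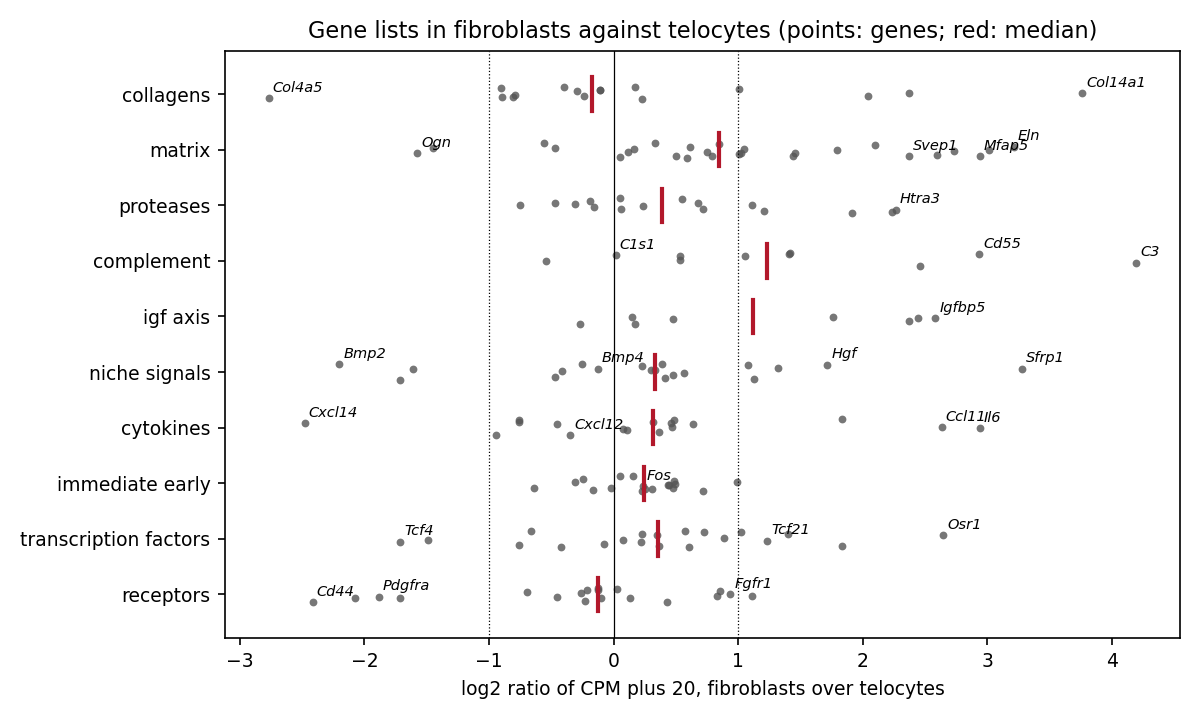
Log2 difference of each gene of 10 fixed lists between fibroblasts and telocytes (points, CPM plus 20), with the median of each list as a red bar and dotted lines at a 2-fold difference. Complement (1.23), the igf axis of growth factors and their binding proteins (1.12) and matrix genes (0.84) lie to the fibroblast side, and collagens (-0.18) near the median of all genes (-0.05).

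The same rule found few cells in the tumor libraries: 8 and 42 at day 1 (1.07% and 1.75% of kept cells), 44 at day 3 (3.10%) and 101 at day 6 (3.57%). Tissue, treatment and dissociation all differ from the stroma library, so their parts cannot be told apart and the values are only set side by side. Of these cells 6, 36, 28 and 74 also reached another type's sum, in 5, 20, 23 and 51 cells the epithelial one. Dcn stood at 2496, 2528, 2104 and 3639 CPM, against 9328 in the stroma, and Gsn at 314, 204, 806 and 1224 against 16218. Lum had 0 counts in the libraries of day 1 and day 3 and 9.85 CPM at day 6, against 604.5 in the stroma.

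Few of those cells carried the subset genes. The niche description was met by 0, 0, 0 and 2 cells and the adventitial by 0, 0, 1 and 2. Replicate 1 of day 1 had no entry for Cilp, so its adventitial sum rested on Pi16 and Has1. Fos stood at 254, 169, 244 and 135 CPM beside 7852 in the stroma, and Mmp3, for a matrix metalloproteinase, at 89.7, 124, 403 and 44.3 CPM beside 13.0 in the stroma, where 1 cell held 46.2% of its 13 counts.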

How the data were processed

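Counts of UMIs per gene and cell were deposited by the authors, who aligned inDrop reads to GRCm38 and counted them with dropEst, per the study's methods. The deposited counts were used as given, and 0 columns belonged to other samples. Kept barcodes had at least 500 genes and at most 15% mitochondrial counts. Fibroblasts, telocytes and muscle cells were chosen by the sums in the report. The members, the markers, the 21 fixed gene lists and the comparisons were chosen with earlier results of these data known.

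Counts were summed over the cells of a group and divided by the group's UMIs. Differences were log2 ratios of CPM plus 20 for genes with at least 10 counts over both groups, and a difference was called at 2-fold. Single ratios with intervals are of CPM without the 20, with the exact binomial interval for the split of the counts. With 1 stroma library no test was run. Leading genes were the 15 with the highest ratio each way and detected in 10% or more of that side's cells. From each fixed list, its counts, its median and the members with the highest level or largest difference were named. No doublet caller was run. Cells meeting another type's marker sum (at least 4 UMIs, or 10 for epithelium) were called mixed and left out in an alternative. Other alternatives thinned each cell to 1000 UMIs, which left out 30 of 290 fibroblasts, or changed the sums, the filter or the added CPM. Clusters (Leiden, resolution 1) used 1000 variable genes, 10 principal components and 20 neighbours. The rule genes and Grem1, Pi16, Cilp and Has1 were left out of the clustering. The scripts were tested on simulated counts with known changes. Python 3.11.15, numpy 2.4.6, scipy 1.17.1, pandas 2.3.3, scikit-learn 1.9.0, igraph 0.11.9, leidenalg 0.10.2 and matplotlib 3.10.9 were used. Promoter windows are from RefSeq, GRCm38.p6, and gene positions from an annotation of the same build.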

Additional observations from a re-analysis of the deposited data

How the results depend on the processing

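No paired analysis was possible because the stroma is 1 library and no comparison came from a test. The share of stroma cells that were fibroblasts moved to 50.1% when cells reaching another type's sum were left out of both sides. The niche share moved to 8.66% with cells thinned to 1000 UMIs and 12.4% with at least 2 Grem1 UMIs, and the adventitial share to 23.45% with at least 1 adventitial UMI. Genes at least 2-fold higher in adventitial cells numbered 169 thinned, 701 with 5 CPM added, 183 with 50 CPM, 704 without a count filter and 146 with at least 30 counts. Genes higher in niche cells numbered 128 thinned, 587 with 5 CPM, 121 with 50 CPM, 125 with at least 30 counts and 484 with each cell weighted equally, an alternative chosen after seeing the data. Genes higher in fibroblasts than telocytes numbered 349 without other-type cells, 589 thinned, 660 with 5 CPM and 115 with 50 CPM, and those higher in telocytes 526 thinned, 733 with 5 CPM and 146 with 50 CPM. Among 460 recomputed log2 differences of 43 named genes between the subsets, and counting only genes at least 2-fold different as reported, 4 turned, namely Sprr2a1 (-0.50), Guca2a (-0.067) and Sprr2a2 (-0.50) without other-type cells and Sprr2a2 thinned (-0.87). Among 311 of 39 genes against telocytes 2 such turned, Tff3 (-0.029) and Plvap (0.18), both without other-type cells. Differences under 2-fold also crossed 0, such as Sfrp1 between the subsets (-0.14 as reported, up to 0.06) and Cxcl1 against telocytes (0.10, down to -0.27). The causes were not tested. With 1 library, differences between animals cannot be seen, and genes of a few counts are limited by depth.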

Other observations

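Smaller fixed lists gave mixed or low values in the fibroblasts against all other kept stroma cells. Of all 14056 genes tested 4.68% were at least 2-fold higher and 3.92% lower. Of 7 genes tied to lymphoid stroma 3 were at least 2-fold higher and 1 lower (median log2 difference 0.06), with the B cell attractant Cxcl13 at 297 CPM (264 to 332) and 2 counts of Ccl19. Of 7 cell cycle genes 0 were higher and 2 lower (median -0.61), with 4 counts of Mki67 in all 290 cells. Of 3 genes of the interstitial cells of Cajal 0 were higher and 1 lower (median -0.58). Among mesothelial genes Upk3b had 0 counts in 997589, and the 1 gene with enough counts to be tested, Krt19, which epithelium also expresses, stood at 457 CPM (416 to 501) with a log2 difference of -1.41.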
